A study of Mus musculus with 2 samples.

Results

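The genes named Rnf are a numbered series of RING finger genes, most of them ubiquitin ligases, and share the RING domain with Mul1, the gene knocked out in these oocytes. Members were all gene probes whose name on the array begins with Rnf followed by a digit, a rule that used no measured value. It gave 84 genes with 177 probes, among 37074 gene names on the array. Of these, 76 Rnf genes were well above background on both arrays, by 150 probes, among 22921 genes measured in this way. Unfertilised oocytes came from C57BL/6 mice of 2 genotypes, wild type (MUL1 +/+, 213 oocytes) and Mul1 knockout (MUL1 -/-, 123 oocytes), and the RNA of each pool was put, after amplification with Cy3 label, on 1 single-colour Agilent array. How the knockout was made, the part of Mul1 it removes and the age of the animals are not given in the sources used here. The comparison asks which Rnf transcripts differ between the pools of the 2 genotypes. Markers of other cell types were also measured in both pools, as given below. With 1 array per genotype no difference has a replicate check and no test was made, so all values describe this pair of pools. Because each pool is a bulk sample, fewer cells of a type and less RNA per cell cannot be told apart.

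Ubiquitin is attached to proteins by a relay of an activating enzyme, a conjugating enzyme (E2) and a ligase (E3). A RING domain, folded around zinc ions held by cysteine and histidine residues, binds the loaded E2 and brings it to the substrate. Most Rnf proteins pass ubiquitin directly from the E2, while the RING-between-RING members first take it onto a cysteine of their own. The name records the domain and not a shared task: members act on histones, DNA breaks, membrane receptors, misfolded proteins of the endoplasmic reticulum (ER), stalled ribosomes and immune signalling. A mature oocyte transcribes little, and stored maternal transcripts and controlled protein breakdown carry it through meiosis and the first divisions of the embryo.

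The probes behind the members farthest apart, and behind the members whose probes disagreed most, are shown because the size of each difference rests on them. Each probe has 60 bases, and its first 30 are given 5′ to 3′ as the array files list them, with the position of the whole probe on mouse build mm9. Whether a probe lies in coding sequence or in a UTR was not annotated here. No base is singled out, so all are in lower case.
Rnf152, NM_178779, chr1:107176763-107176822, minus strand: acagaaaatctaataaataagagtctgatg
Rnf152, NM_178779, chr1:107173538-107173597, minus strand: ttgtatgctaaactggtgtcttgtcctttg
Rnf144b, NM_146042, chr13:47343234-47343293, plus strand: cacgatccaggaagttttgttgtgtgctta
Rnf144a, NM_080563, chr12:26992245-26992304, minus strand: cctcacaatgaacccaaacccttatgaagt
Rnf138rt1, NM_028842, chrX:160198168-160198227, minus strand: tggatgaggaaacccaatttcagatcgcca
Rnf150, AK220374, chr8:85518379-85518438, plus strand: ggccctccctgaacacatttttaaaaatat
Rnf150, NM_177378, chr8:85611575-85611634, plus strand: aaagatcatcatgcaatctacaaagagaag
Rnf19b, XM_011240632, chr4:128760979-128762799, plus strand: aacaatatggaaatccaagtggacattgaa
Rnf19b, NM_029219, chr4:128761665-128761724, plus strand: gcaatctgtgaggtgtgtcaaagaatgtac
Rnf19b, ENSMUST00000030584, chr4:128762917-128762976, plus strand: gttaatggacttggcgtctcagtaagaaag
Rnf146, NM_026518, chr10:29067271-29067330, minus strand: ctagtcgggagctagaagatgctttttcca
Rnf146, NM_001110197, chr10:29066536-29066595, minus strand: cactcaagggtaaaatggatacctgtaaat
Rnf146, NM_026518, chr10:29066071-29066130, minus strand: ctaataagtttcagaatctgtaacgcactt
Rnf146, NM_001110197, chr10:29064264-29064323, minus strand: tcatcagtcaagcctatatttaaagcttcc
The first Rnf19b probe is listed over 1821 bases of the genome for its 60 bases, and the NM_029219 probe lies within that span. In all, 7 of the 176 mapped Rnf probes had a genomic span wider than the probe.

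A difference is the log2 signal of the knockout less that of the wild type, each taken relative to the 75th percentile of its own array, and a negative value means lower in the knockout. Signals are processed scanner intensities before that scaling, wild type first and knockout second, as a geometric mean where a gene has several probes. Signals of different probes are not compared with each other. At its RefSeq probe Mul1 itself had signals of 3353 and 1074, 3.05-fold lower in the knockout. The knockout signal there was still above that array's 75th percentile of 789.6. At a dim Ensembl probe Mul1 had 19.3 and 23.1, a difference of 0.29. The Rnf genes were alike on the arrays. Their median difference was 0.02, against 0.03 over all genes, with quartiles of -0.15 and 0.14 against -0.16 and 0.22. Of them 40 lay above 0 (52.6%, against 54.8% of all genes) and 36 below. No Rnf gene was 2-fold apart or more, where 4.29% of all genes were, 2.92% higher and 1.37% lower. At 1.5-fold 3 Rnf genes were higher, Rnf150, Rnf138rt1 and Rnf144b, where 7.84% of all genes were, and 1 was lower, Rnf152, where 5.19% were. In either direction that is 5.26% of the Rnf genes and 13.0% of all genes. Within 0.25 of 0 lay 51 Rnf genes (67.1%) and 60.4% of all genes. These shares are not matched for signal, and the spread of differences varied with signal, as given below. The scanner software's own error gave a median error of 0.20 for the difference of a single Rnf probe. Of the 76 gene differences, 42 of them means of several probes, 48 were no larger than that. The same count was not made over all genes. Repeated spots varied less, with a median SD of 0.06 for a single-spot difference over 296 probes with 5 or more spots. Both measures cover the spot and not the pool, the amplification or the animals.

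Ligases of chromatin, DNA repair and RNA were all measured, 11 of 11, and ran from -0.32 to 0.14. Within 0.25 of 0 lay 9 of them (81.8%, against 60.4% of all genes). Rnf2, the catalytic subunit of Polycomb repressive complex PRC1 that ubiquitinates histone H2A, had signals of 1906 and 1693, a difference of -0.14. The histone H2B ligase is a pair of Rnf20 and Rnf40, and these lay on opposite sides. Rnf40 read 1493 and 1613, a difference of 0.14. Rnf20 averaged -0.28, with signals of 1097 and 881, but its bright probes differed by -0.06 and -0.07, and the lower mean came from a dim Ensembl probe with signals of 36.9 and 21.8. Rnf8, the first ligase at DNA double-strand breaks, read -0.12 and Rnf168, which extends the H2A mark there, 0.12 (2667 and 2829), while Rnf169, which limits 53BP1 at breaks, read 0.10 (234 and 244). The SUMO-targeted ligase Rnf4 was lowest of this group at -0.32, with signals of 693 and 543, and its 3 probes read -0.35, -0.33 and -0.28. The other SUMO-targeted ligase, Rnf111, also known as Arkadia, read -0.15 (1471 and 1293). The origin-recognition ligase Rnf219 read 0.04, the spliceosome gene Rnf113a1 0.08 and its retrogene copy Rnf113a2 -0.15 (4108 and 3613). Among their partner genes, those of H2B ubiquitination were spread most widely. Of 20 PRC1 partners all were measured, with a median of -0.02 and none 1.5-fold apart, Pcgf1 lowest at -0.33 and Cbx6 and Cbx2 highest at 0.37 and 0.29. Of 14 partners at DNA breaks 13 were measured, with a median of -0.05 and none 1.5-fold apart, from the H2AX-binding scaffold gene Mdc1 at -0.29 and Atm at -0.23 to Herc2 at 0.23 and H2afx at 0.27. Among 10 partners of H2B ubiquitination 8 lay below 0, with a median of -0.13 and 5 within 0.25 of 0. Wac, which recruits Rnf20 and Rnf40 to transcribed chromatin, was 1.5-fold lower or more at -0.94 (signals 1039 and 528), followed by the deubiquitinase gene Usp44 at -0.52, while the E2 gene Ube2a read 0.26 and Leo1 0.03.

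The RING-between-RING ligases were spread more widely than the Rnf genes as a whole, but about as widely as all genes. Close relatives went the same way. All 8 were measured, with a median of -0.13 and 6 below 0. The SD between genes was 0.47, against 0.29 over all Rnf genes and 0.44 over all genes measured. The PA-TM-RING group, described below, had an SD of 0.48. Rnf144b, a p53-inducible ligase, had signals of 341 and 553, 1.66-fold higher in the knockout. Its relative Rnf144a, a membrane-anchored ligase, had signals of 179 and 259, a difference of 0.56, just inside the 1.5-fold line at 0.58. Both are measured by 1 probe, with scanner errors of 0.20 and 0.21 on their differences of 0.73 and 0.56. The pair Rnf19a, or dorfin, and Rnf19b lay on the other side. Rnf19a read -0.45 (2864 and 2049.7), and its 3 probes were within 0.06 of each other, with signals of 19733 and 14353 at the brightest. Rnf19b read -0.55 (4750.4 and 3176). Its probes lay at -0.25 and -0.28, apart from the Ensembl probe farthest downstream, with signals of 775 and 349 and a difference of -1.12. Without that probe Rnf19b read -0.26. Rnf217, a ligase of the iron exporter ferroportin, had signals of 1750.1 and 1263 and was lower at both probes, -0.55 and -0.33. The remaining members were near 0. Rnf31, or HOIP, the catalytic subunit of the linear ubiquitin assembly complex, read -0.02 (3076 and 2959). Rnf216, needed for male fertility, read -0.12, and Rnf14, which acts at stalled ribosomes, averaged -0.15. The bright probes of Rnf14 read -0.01 (14532 and 14142) and 0.08 (2904 and 2993), and a dim probe -0.52 (29.2 and 19.8). Of 7 partners of Rnf31, 6 were measured, 2 above 0 and 4 below. The adaptor gene Sharpin read 1532 and 2629.7, a difference of 0.81, and Ikbkg 0.24, while the other adaptor, Rbck1, read -0.06. The ubiquitin-editing gene Tnfaip3 was at least 2-fold lower at -1.30, with signals of 1390.3 and 550.3, and the deubiquitinase gene Cyld read -0.61 over probes from -1.38 to -0.16.

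**Figure D1:**
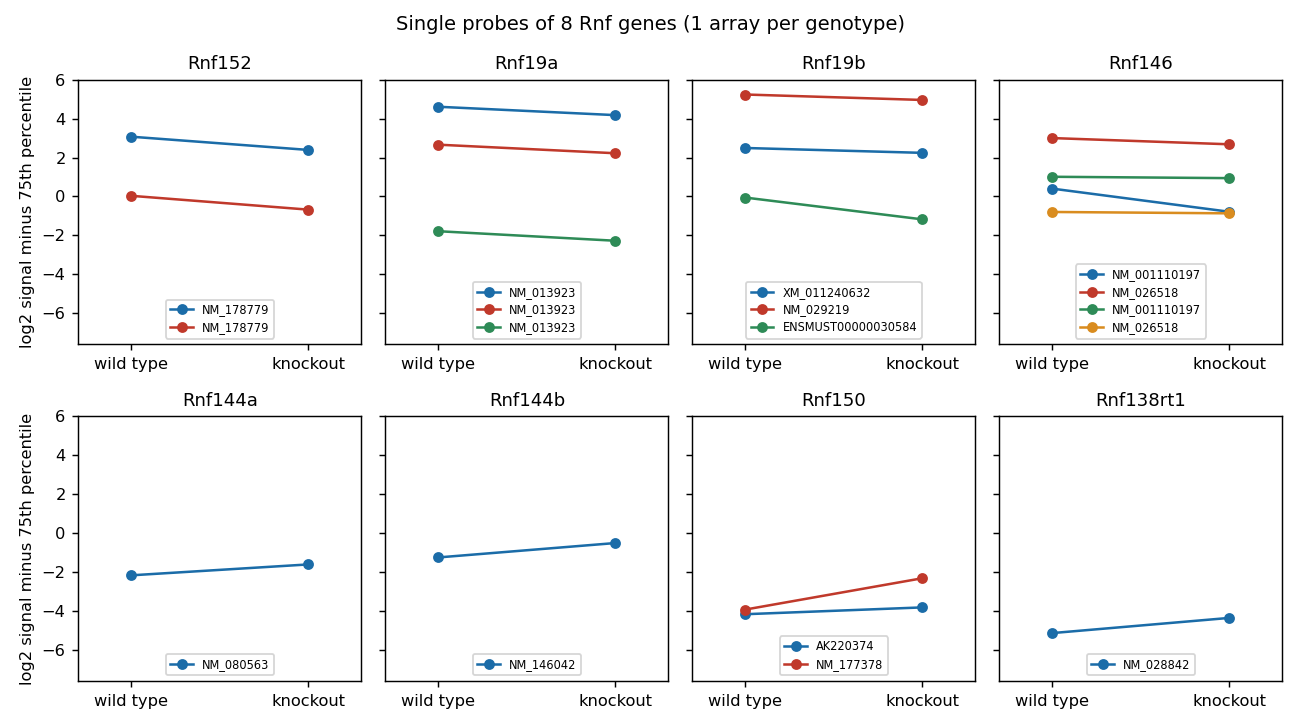
Scaled log2 signal of single probes on the wild-type and the knockout array for 8 Rnf genes, each line 1 probe named by the transcript it was designed on, with 1 array per genotype. The lines of Rnf152 and Rnf19a run in parallel, while 1 probe each of Rnf19b, Rnf146 and Rnf150 is steeper than the others of its gene.

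The PA-TM-RING ligases, single-pass membrane proteins with a protease-associated domain facing the lumen, held the member farthest from 0 among all Rnf genes. Of 9, 7 were measured, with a median of -0.07 and 5 below 0 (28.6% above 0, against 54.8% of all genes). Rnf150 averaged 0.98, or 1.97-fold higher, over probes that disagreed. The probe for NM_177378 had signals of 53.1 and 158, 3.05-fold higher, and the probe for AK220374 had 44.7 and 55.7, 1.27-fold higher. Its remaining probe was above background on neither array. Rnf43, which removes Frizzled Wnt receptors from the cell surface, was at the other end with signals of 819 and 551, a difference of -0.54 with a scanner error of 0.20. Rnf149 read 11917 and 9888, a difference of -0.24, and Rnf128, or GRAIL, 9109 and 7687, a difference of -0.21. The endosomal and lysosomal ligases Rnf13 and Rnf167 read -0.01 (446 and 434) and -0.07, and Rnf130, the mammalian homolog of fly goliath, 0.17 (255 and 281). Rnf133 and Rnf148, both expressed in testis, were above background on neither array. Among 20 Wnt receptor partners of Rnf43, 17 were measured, with a median of -0.07. Znrf3, the closest relative of Rnf43 in this task, read 624 and 452, a difference of -0.43, and all its probes lay between -0.56 and -0.35. The receptors for R-spondin that remove both ligases from the membrane, Lgr5 and Lgr4, read -0.40 and -0.25. The R-spondin genes themselves differed in direction, Rspo1 at -0.91 near the detection limit, and Rspo2 at 0.52 with signals of 1612 and 2256. Of the 9 Frizzled genes measured 5 lay above 0 and 4 below, from Fzd5 at -0.31 to Fzd2 at 0.52.

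Ligases of the ER and other organelle membranes included the lowest Rnf gene of all. Of 16 members 14 were measured, 10 above 0 and 4 below (71.4% above 0, against 54.8% of all genes), with a median of 0.05. Rnf152, a lysosomal ligase that restrains the growth kinase complex mTORC1, had a difference of -0.69, or 1.62-fold lower. Its probes gave -0.71 (signals 824 and 493) and -0.68 (signals 6790.1 and 4139), each with a scanner error of 0.20. On the other side Rnf170, the ER ligase of inositol trisphosphate receptors, averaged 0.43 (460.0 and 605), with 0.84 at a dim probe (signals 78.4 and 137), 0.31 at a second and 0.13 at the brightest (2543 and 2727). Rnf5, which serves ER protein quality control, read 7234 and 8916, a difference of 0.33, while its close relative Rnf185, which is also found at mitochondria, read -0.01 over probes from -0.27 to 0.29. Rnf145 and Rnf139, both ER ligases of sterol control, read 0.33 (249 and 307) and 0.08, and all 3 probes of Rnf145 lay between 0.30 and 0.35. Rnf26, which positions endosomes, read 0.15 over 4 probes from 0.02 to 0.21. Rnf182 read 0.28, Rnf122 0.20, Rnf121 and Rnf215 both 0.02, Rnf24 0.01, Rnf180 -0.01 (952 and 924) and Rnf103 -0.05 (1383 and 1309.8). Rnf183, enriched in kidney, was above background on neither array. Rnf186, known from intestinal epithelium, passed background in the wild type alone, with a signal of 23.5 against 18.6, a difference of -0.30 with a scanner error of 0.40.

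The ligases with a zinc finger and a ubiquitin-interacting motif lay in a narrow band. Rnf114, whose loss in eggs impairs the maternal-to-zygotic transition, had signals of 16166 and 16071, a difference of 0.02. Rnf166, of antiviral signalling, read -0.13 (7893 and 7068), and Rnf125, which limits the RNA sensor RIG-I, read -0.17 (9883 and 8571) over 4 probes from -0.21 to -0.15. Rnf138, a ligase of DNA end resection, read -0.26 (1858 and 1519) over probes at -0.35 and -0.17. Its retrogene copy Rnf138rt1, counted with the germ cell genes, was 1.72-fold higher at a dim probe with signals of 22.9 and 38.5 and a scanner error of 0.32. The lowest signals well above background were 12.9 (wild type) and 15.8 (knockout), so Rnf138rt1 lay close to that limit, and hybridisation of transcripts from the related gene to this probe was not tested.

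Among ligases of signalling and immunity 7 of 9 lay above 0 (77.8%, against 54.8% of all genes), with a median of 0.07. The members farthest from 0 were Rnf11, Rnf165 and Rnf146. Rnf11, a small adaptor of the A20 ubiquitin-editing complex whose catalytic gene is Tnfaip3, read 3162 and 2269, a difference of -0.45 over probes at -0.57 and -0.32. Rnf146, which binds poly(ADP-ribose) and degrades axin, averaged -0.41 (1508 and 1109), but its 4 probes ran from -0.06 to -1.19. The gene lies on the minus strand. From upstream to downstream the differences were -0.06, -0.08, -0.32 and -1.19, the last with signals of 1065 and 457. Without that probe Rnf146 read -0.15. On the higher side Rnf165, of BMP signalling in neurons, read 0.43 at dim signals of 23.4 and 31.0 and -0.17 without the filter on dim probes, Rnf41, or Nrdp1, a ligase of ErbB3, 0.26 (405 and 473) with probes from 0.20 to 0.29, and Rnf187, a coactivator of c-Jun, 0.20 with signals of 10888 and 12263. The interferon-related members were near 0, with Rnf135, the ligase that activates RIG-I, at 0.16 and the giant antimicrobial ligase Rnf213 at 0.07. Rnf220 read 0.02 and the caspase ligase Rnf34 0.01 (9593 and 9468).

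The ligases of cytosolic and nuclear substrates had a median of 0.08 over 11 measured of 11. Rnf7, the RING subunit of cullin-5 ligases, read 5375 and 5566, a difference of 0.08. Its 14 partners were all measured, with a median of -0.05 and none 1.5-fold apart, Cul5 at -0.05, Rbx1 at 0.18, the neddylation E2 gene Ube2m highest at 0.48, then Cul4a at 0.27, and Cul1 and Ube2f lowest, both at -0.25. The BAG6 partner Rnf126 read 0.16 (3497 and 3809) and its relative Rnf115 0.08. Rnf44 read -0.25 (509 and 418). Rnf10 and Rnf25, ligases of stalled ribosomes, read -0.01 and -0.05 (576 and 545 for Rnf25). Rnf123, the catalytic subunit of the ligase for the cell cycle inhibitor p27, read 0.13 (715 and 764), Rnf181 0.11 and Rnf6 -0.18 (3038 and 2620.5). The neuronal ligase Rnf157 was highest at 0.48, at the single probe of its 6 that was above background on both arrays, with signals of 44.2 and 60.1. Of its other probes, 3 passed background in the wild type alone, at -0.40, -0.41 and -2.15, and 1 in the knockout alone, at 0.97. Without the filter on dim probes Rnf157 read -0.20, so its direction rests on that filter.

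Of 7 germ cell genes 6 were measured, 3 on each side of 0. Besides Rnf138rt1, Rnf17, a Tudor-domain gene of male germ cells, read 0.22 with signals of 276 and 315. Its other probe was above background in the knockout alone, with signals of 15.7 and 42.7. The difference there was 1.47 with a scanner error of 0.38, and its size is imprecise because the wild-type signal did not pass background. The meiotic crossover genes Rnf212 and Rnf212b read 0.06 and -0.35, both near the detection limit with signals of 38.4 and 39.0, and 24.2 and 18.5. Of 14 partner genes of crossover formation 9 were measured, with a median of 0.05, Sycp3 at -0.07, Sycp2 at 0.18 and the dim helicase gene Hfm1 highest at 0.74. Rnf141 read -0.26 (1359.9 and 1113) over 4 probes from -0.31 to -0.20, and Rnf32 -0.02 (124 and 119). The spermatid gene Rnf151 was above background on neither array. Of 9 genes with no role listed here, 6 were measured, from Rnf224 at -0.11 (149.7 and 136) and Rnf214 at -0.04 (674 and 643) through Rnf223 at 0.06 (39.2 and 39.9), Rnf112 at 0.07 (37.1 and 38.2) and Rnf207 at 0.13 (112 and 119) to Rnf208 at 0.32 (297 and 362). Rnf39, Rnf222 and Rnf225 were above background on neither array, which makes 7 such Rnf genes in all.

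**Figure D2:**
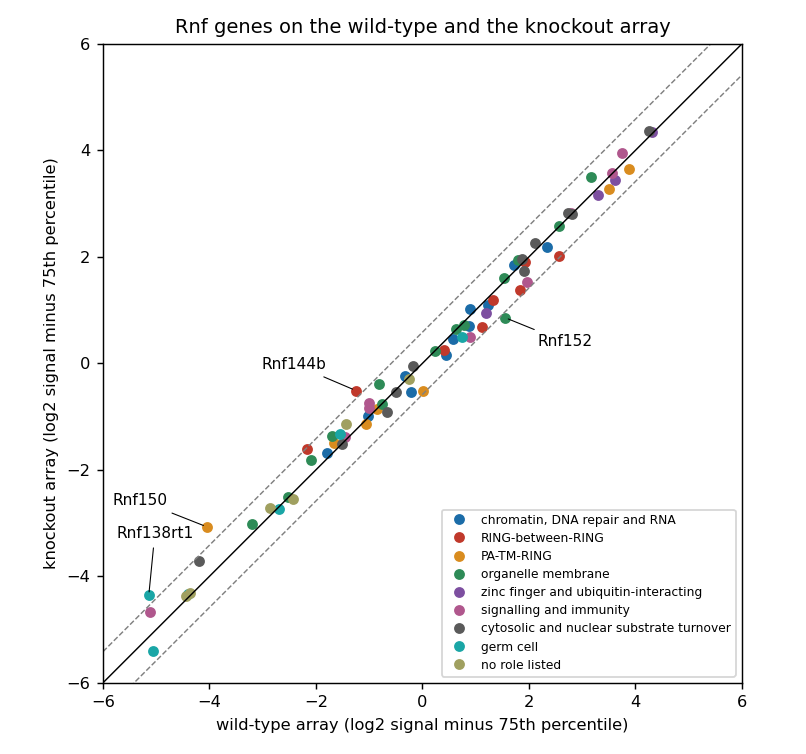
Scaled log2 signal of the 76 Rnf genes on the wild-type array (horizontal) and the knockout array (vertical), coloured by role, with the line of equality and dashed lines at 1.5-fold. The genes follow the line of equality, and Rnf150, Rnf138rt1, Rnf144b and Rnf152 lie outside the dashed lines.

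The Rnf differences were spread more widely at dim signals than at bright ones. All measured genes were divided into 5 equal bins by mean signal. From the dimmest to the brightest bin, the SD of the differences over all genes was 0.55, 0.54, 0.43, 0.34 and 0.26. The Rnf genes numbered 7, 6, 22, 21 and 20 from dimmest to brightest, with SDs of 0.37, 0.40, 0.25, 0.24 and 0.19. The lowest member, Rnf152 at -0.69, nevertheless lay in the second brightest bin. In the second brightest bin, with mean signals from 671 to 2800, the Rnf genes had a median of -0.15 and 16 of 21 lay below 0, where the median of all genes was 0.01. In the other bins the Rnf medians were between 0.02 and 0.09. Across the 150 Rnf probes the difference went with GC content at Spearman rho = 0.23 and with signal at rho = -0.26, and across all 35255 probes at 0.14 and -0.07, as descriptions over probes that share the same arrays. The part of signal and base composition in single differences was not tested. Several probes on both arrays were available for 42 Rnf genes, and the range between probes of a gene had a median of 0.21, against 0.24 over 8023 genes. All probes lay on the same side of 0 in 26 of the 42 (61.9%, against 58.2% of all such genes). The range was over 1 in Rnf150 and Rnf146, and over 0.5 in 8 genes (19.0%), against 2009 of the 8023.

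Other ubiquitin ligases had medians below 0. The 61 measured of 63 other RING ligases had a median of -0.06, with 39 below 0, and the 25 HECT ligases, which like RING-between-RING proteins carry ubiquitin on a cysteine, one of -0.03, with 15 below 0. None of either list was 1.5-fold higher, where 7.84% of all genes were, and 2 of each were 1.5-fold lower, where 5.19% were. Those of the RING list were the p53 ligase gene Mdm2 at -0.83, with probes at -1.29 and -0.37, and Mul1, the gene knocked out, at -0.66 as a mean of its probes. The lowest HECT ligase was Herc4 at -0.74, whose probes ran from -2.41 to -0.08. At the other end of the RING list stood March10 at 0.46 and Dtx1 at 0.42, and of the HECT list Hecw2 at 0.34 and Wwp1 at 0.31. Of the RING ligases known at mitochondria, March5 read -0.04 and Park2 0.30 over probes from -0.19 to 0.80. The lists were chosen by hand and hold unequal numbers, and the difference between them was not tested.

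**Figure D3:**
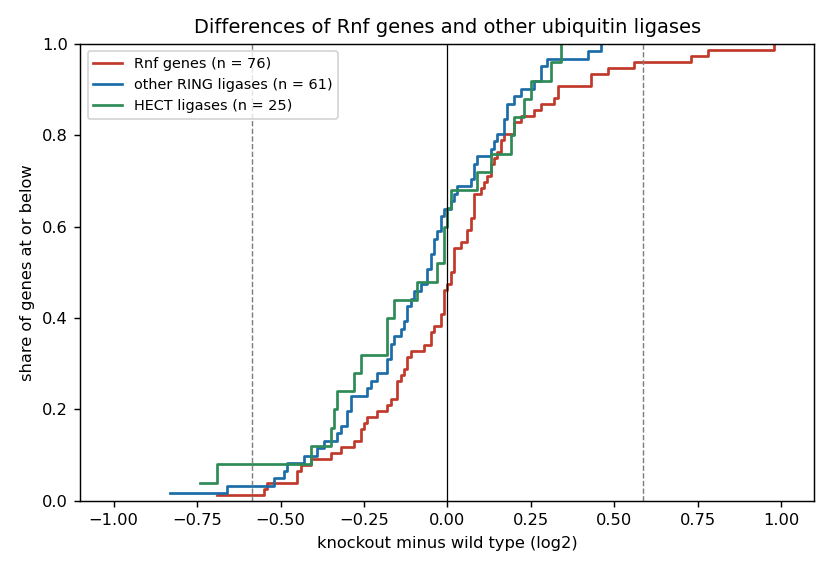
Share of genes at or below each difference (knockout minus wild type, log2) for 76 Rnf genes, 61 other RING ligases and 25 HECT ligases, with dashed lines at 1.5-fold. The Rnf curve reaches furthest to the right, to 0.98, and the curves of the other classes start furthest to the left, at -0.83 and -0.74.

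Markers of other cells differed between the pools. Sums over a list are weighted to its brightest probes. Over all genes 2.92% were at least 2-fold higher and 1.37% lower, and 7.84% were at least 1.5-fold higher. Oocyte markers were measured for 13 of 15, without Figla and Sohlh1, with summed signals of 139979 and 128531. They ran from Dppa3 at -0.21 to Ooep at 0.94, with a median of 0.19 and 7 above 0 (53.8%, against 54.8% of all genes). Among them 2 were at least 1.5-fold higher and none was 2-fold apart. All 22 cumulus and granulosa markers were measured as well, summing to 275364 and 283897, from Ereg at -2.01 to Has2 at 1.16. At 2-fold 1 of them was higher and 2 were lower. Blood and immune markers were measured for 19 of 20, without Ly6g, and summed to 14632 and 44333, with 15 at least 2-fold higher, from Itgam at 0.24 to S100a9 at 3.27. Red cell markers, measured for 6 of 8, summed to 59881 and 19252, with 5 at least 2-fold lower, from Hba-a2 at -1.66 to Slc4a1 at -0.10. The 10 oviduct and endothelium markers summed to 78855 and 121461, from Upk1b at -0.29 to Ovgp1 at 1.54, with 3 at least 2-fold higher. Ovgp1 alone had signals of 24266 and 69104, farther apart than the sums. The theca and stroma markers, 7 of 8 without Lum, summed to 5083 and 6082, from Dcn at -0.94 to Tagln at 0.62, none 2-fold apart. The part of these cells in the differences of Rnf144b, Rnf150, Rnf152 and the other Rnf genes was not tested.

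**Figure D4:**
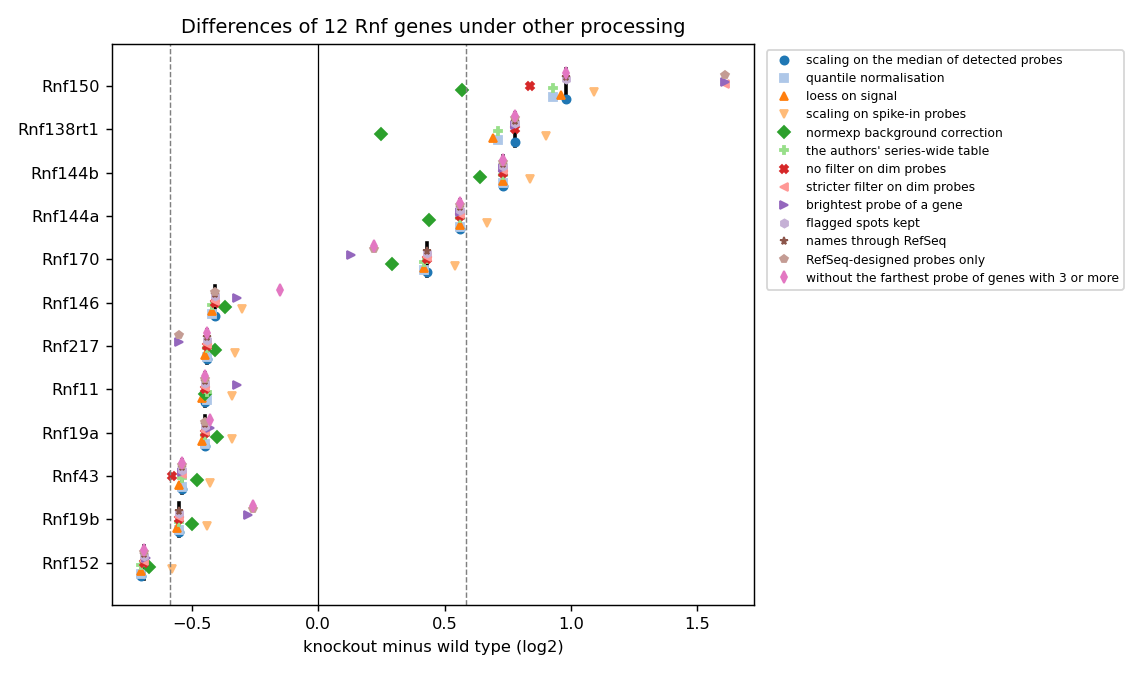
Knockout minus wild type (log2) of 12 Rnf genes under 13 other ways of processing the same arrays (symbols) beside the reported value (black bar), with dashed lines at 1.5-fold. Rnf144b stays above the upper line in all 13, from 0.64 to 0.84, while Rnf150 runs from 0.57 to 1.61 and Rnf138rt1 from 0.25 to 0.90. Rnf144b has 1 probe, so settings that only choose among probes cannot change its value.

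The members past 1.5-fold kept their direction under the alternatives run. Rnf150, Rnf144b and Rnf152 kept their sign in 13 of 13 other settings and Rnf138rt1 in the 12 of 12 that measured it, and they were 1.5-fold apart in 12, 13, 12 and 11 of these. The same 2 arrays underlie all settings, so this is no independent check. Rnf144b and Rnf138rt1 have 1 probe each, so settings that only choose among probes could only repeat their value or drop the gene. The authors' quantile-normalised table gave the same values for all members past 1.5-fold as the quantile normalisation run here. Scaling on spike-in controls moved the median of all genes from 0.03 to 0.14, and on that scale Rnf152 read -0.58, inside the 1.5-fold line, and Rnf144a 0.67, outside it.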

How the data were processed

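Both deposited scanner files give a linear intensity per spot, written by Agilent Feature Extraction 10.7.1.1 per the file headers (9.5.1.1 in the submitters' processing notes), background-subtracted and detrended within each array and not normalised between arrays. The authors' series-wide table of intensity is quantile normalised, judged from nearly equal sorted columns, and served as an alternative.

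Spots flagged as outliers were left out, log2 of the processed intensity was averaged per probe, and each array's 75th percentile over 56600 gene probes (signals of 808 and 789.6) was subtracted. A gene is the mean of its probes well above background on both arrays. Of the probes, 66.0% and 64.5% were well above background, and no Rnf probe was saturated. With 1 array per genotype no test was made, the number of arrays limits precision, and genes are counted past folds of 1.5 and 2. Named are the Rnf genes, Mul1, and the extremes of the partner, ligase and marker lists. Znrf3, Lgr4, Lgr5, Fzd5, Rbck1, Ikbkg, Cyld, Cul5, Rbx1, March5 and Park2 were named besides, after their values were seen. Some genes counted in the lists are not reported here by name. The members and lists were chosen with earlier results of these data known, and the rule's paralog pairs, which needed protein sequences, were taken from general knowledge of the families. Scripts were tested on simulated data. Tools were Python 3.11.15, pandas 2.3.3, statsmodels 0.14.6, scipy 1.17.1 and limma 3.58.1 (normexp, offset 50). The loess span was 0.3.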

Additional observations from a re-analysis of the deposited data

How the results depend on the processing

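No paired analysis was possible because each genotype has 1 array. Of 10 planned and 3 added alternatives (RefSeq names, RefSeq-designed probes alone, and genes of 3 or more probes without their farthest probe, chosen after the data were seen), the counts and the median moved as follows. With scaling on 8 spike-in probes, 5 Rnf genes were at least 1.5-fold higher (Rnf144a and Rnf157 added), 0 lower, and 1 (Rnf150) at least 2-fold higher, with a median of 0.13. With normexp 1 remained at least 1.5-fold higher, Rnf144b. Without a filter on dim probes 6 were higher and 2 lower at 1.5-fold, and 1, Rnf151, which is below background on both arrays by the filter, at least 2-fold higher. With a stricter filter 69 genes were measured and 2 were at least 1.5-fold higher, since Rnf138rt1 was not measured. In either direction at 1.5-fold, the Rnf share was 6.58% against 14.2% of all genes with spike-in scaling. It was 2.63% against 5.25% with normexp, 9.52% against 23.3% without a filter and 4.35% against 8.97% with the stricter filter. Rnf150 alone, 1 gene, was at least 2-fold higher with a stricter filter (4 times the lowest signal well above background), with the brightest probe and with RefSeq-designed probes. The 4 Rnf genes at least 1.5-fold apart as reported kept their sign. Of all 76, 50 kept their sign in every setting and 26 did not. Of these 26, 3 were over 0.25 in size as reported, Rnf157, Rnf165 and Rnf20, which read -0.20, -0.17 and 0.06 without a filter on dim probes. Near the detection limit differences are imprecise, and the cause of these shifts was not tested.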
